A study of Xenopus laevis with 27 samples.

Results

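The comparison described here set NICD embryos against DBM embryos of Xenopus laevis at tailbud stage 28, 6 of the 27 arrays of the series. Its members were the 15505 probe sets, of 32635 on the Affymetrix Xenopus laevis 2.0 array, that carry 1 gene symbol. They cover 11303 distinct symbols. NICD embryos had received RNA for the Notch intracellular domain together with GFP RNA, DBM embryos RNA for a form of the protein Suppressor of Hairless that is mutant in DNA binding, again with GFP RNA, and control embryos GFP RNA alone, as the description of the series gives it. The treatment protocol names the constructs one by one, without GFP beside the others. Capped RNA, 1.5 ng, was injected into 1 cell at the 2-cell stage, so one side of each embryo carried the construct, and each array held total RNA of a pool of 10 whole embryos. There were 3 biological replicates per construct at each of stage 18 (neurula), stage 28 (tailbud) and stage 38 (tadpole). No genotype or strain is stated to differ between constructs, and NICD is labelled ICD in the sample names. Because RNA came from whole embryos with one injected side, a lower value can mean fewer cells of a type or less RNA per cell, and these cannot be told apart.

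Notch is a receptor that is cut when a neighbouring cell presents a Delta or Serrate/Jagged ligand, which frees its intracellular domain. That domain enters the nucleus, binds the DNA-binding protein Suppressor of Hairless (RBPJ) and switches on target genes, foremost the HES and HEY families of transcriptional repressors and the feedback inhibitor Nrarp. In the frog embryo the pathway is known for holding neural precursors back from becoming neurons, for setting the spacing of multiciliated cells and ionocytes in the skin, and for the segmentation of the presomitic mesoderm. NICD activates the pathway without ligand. DBM, which cannot bind DNA, suppresses it, so the pair sets a gain against a loss of signaling.

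Array medians at stage 28 were 6.93 to 6.95 log2 for NICD, 6.96 to 6.97 for DBM and 6.91 to 6.97 for GFP, and hybridisation controls overlapped between constructs. The 3' minus 5' difference of the ef1a control probe sets was -0.532 to -0.404 on NICD arrays, -0.371 to -0.248 on DBM arrays and -0.359 to -0.129 on GFP arrays. NICD and DBM arrays did not overlap in this measure of RNA integrity. The same difference of the actin controls overlapped (11.105 to 11.226 on NICD and 10.969 to 11.215 on DBM arrays). A difference that large leaves the 5' actin probe set low, so actin is a poor gauge of integrity here. The part of RNA integrity in the results was not tested. The notch1.S probe set read 9.65, 9.80 and 9.78 on NICD arrays, against 9.39, 9.64 and 9.73 on DBM arrays, and did not pass the test (difference 0.16, limma-adjusted p = 0.249). The best of 3 rbpj.S probe sets differed by 0.29 (limma-adjusted p = 0.09). Whether these probe sets read the injected RNA is not stated, so they do not check the labels.

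Differences below are NICD minus DBM on the log2 scale of the deposited values, where 1 is a 2-fold difference. A probe set passed when its p from limma, adjusted by Benjamini-Hochberg, was below 0.05. The model was fitted to the 9 arrays of stage 28 with the replicate number as a block. Of the 15505 probe sets, 431 were higher in NICD (2.78%) and 773 were lower (4.99%), which made 366 and 717 distinct symbols. The called probe sets had median differences of 0.443 and -0.498. Differences of at least 1 were found in 21 probe sets that were higher and 75 that were lower, whereas the median size over all 15505 was 0.104. Every one of the 1204 called probe sets moved the same way in all 3 replicate pairs, which their selection by a fit blocked on the replicate number favours. NICD and DBM arrays did not overlap in 980 of them, while 20.8% of all probe sets with a symbol did not overlap. Without the block, 123 were higher and 232 lower. The counts of 431 and 773 fell by over 1.5 times without NICD replicate 2 (166 higher and 330 lower) or NICD replicate 3 (188 and 334). They did so too without DBM replicate 1 (249 and 445), DBM replicate 2 (189 and 414) or DBM replicate 3 (157 and 330). All 1204 kept their sign in every such fit, which the agreement of all 3 replicate pairs favours.

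**Figure D1:**
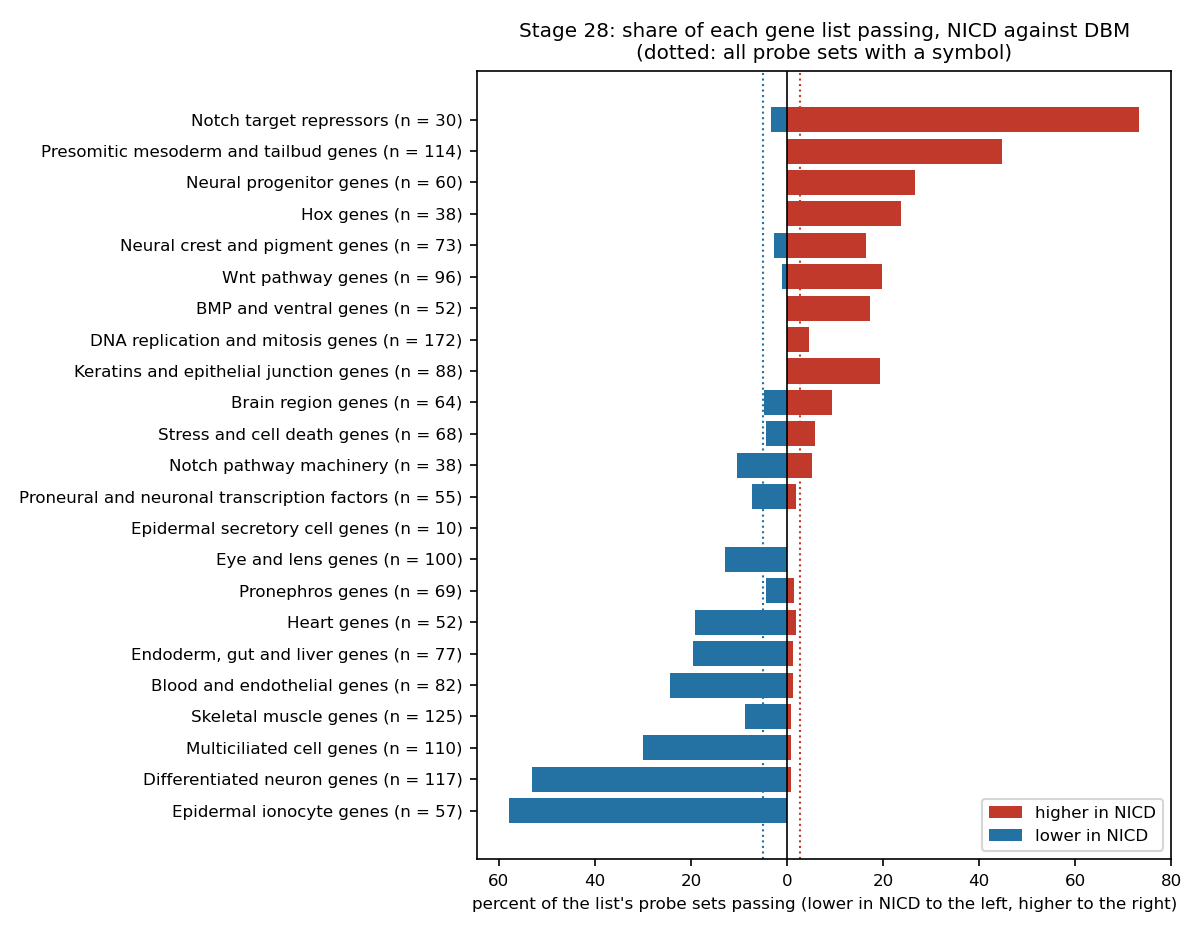
Share of the probe sets of 23 gene lists that passed in NICD against DBM embryos of stage 28, higher in NICD to the right and lower to the left, in percent, with the number of probe sets per list in brackets. Dotted lines mark the shares over all probe sets with a symbol (2.78% and 4.99%). Notch target repressors reach 73.3% higher, and differentiated neuron and ionocyte genes 53% and 57.9% lower. The lists and their members were chosen with earlier results of these data known, which can favour high shares.

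The repressors known as direct Notch targets were higher in NICD embryos. Of 30 probe sets for 19 symbols of HES, HEY, ESR and Nrarp genes, 22 were higher and 1 was lower (73.3% and 3.33%), with a median difference of 0.863 beside 0.023 over all probe sets with a symbol. The list as a whole averaged 0.378 to 0.457 above the mean of the 9 arrays on NICD arrays and -0.349 to -0.24 on DBM arrays, with GFP arrays at -0.215 to -0.027. The hes5 genes, whose products hold back neuronal differentiation, led it. hes5.1.S read 10.38, 10.35 and 10.54 on NICD arrays, against 9.17, 9.12 and 8.91 on DBM arrays, and 9.75, 9.81 and 9.55 on GFP arrays. All NICD arrays lay above all GFP arrays, and all GFP arrays above all DBM arrays. The difference was 1.36 ± 0.10, or 2.56-fold, at a limma-adjusted p of 0.000157 (3 arrays per construct). The value after ± of a difference is the SE of the limma fit to the 9 arrays, with the part shared by each replicate number removed. Its homeolog hes5.1.L differed by 1.37 ± 0.11.

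hes5.5.S showed the same order, with 8.89, 9.28 and 9.29 on NICD arrays, 7.83, 7.88 and 7.62 on DBM arrays, and 8.50, 8.51 and 8.17 on GFP arrays, a difference of 1.38 ± 0.12 (limma-adjusted p = 0.000346). A second probe set for it, which may cross-hybridise, differed by 1.40. The other hes5 members passed too, with differences of 1.13 for hes5.6.L, 1.07 for hes5.7.L, 1.17 for hes5.2.L and 1.23 for hes5.2.S. nrarp.S, whose product feeds back on the NICD complex, read 11.68, 11.71 and 11.85 on NICD arrays, against 10.81, 10.89 and 11.01 on DBM arrays. The GFP arrays (10.93, 10.74 and 11.10) overlapped the DBM arrays here. The difference was 0.84 ± 0.08, and 1.24 on another nrarp.S probe set. hey1.S, a HEY-family repressor, differed by 0.72 ± 0.08 and esr-5.L, a HES-related gene of the presomitic mesoderm in frogs, by 1.02 ± 0.10. The smaller differences of hes4.S (0.42), hes4.L (0.46) and hes7.1.L (0.37) passed. Each of these 3 calls was lost without NICD replicate 2, NICD replicate 3, DBM replicate 2 or DBM replicate 3. Those of hes4.L and hes7.1.L were lost also without NICD replicate 1 or DBM replicate 1, and that of hes7.1.L without GFP replicate 2. Other probe sets for hes4.S (0.34, 0.14 and 0.10) and hes7.1.L (0.13 and 0.06) did not pass. hes1 did not pass in either copy (0.13 for hes1.S, -0.08 for hes1.L). The member lower in NICD was hes2.L, at 6.96, 6.32 and 6.91 on NICD arrays and 7.31, 6.98 and 7.51 on DBM arrays (-0.54 ± 0.12, limma-adjusted p = 0.0283). Its call was lost without NICD replicate 2 or 3 or any 1 of the DBM arrays.

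**Figure D2:**
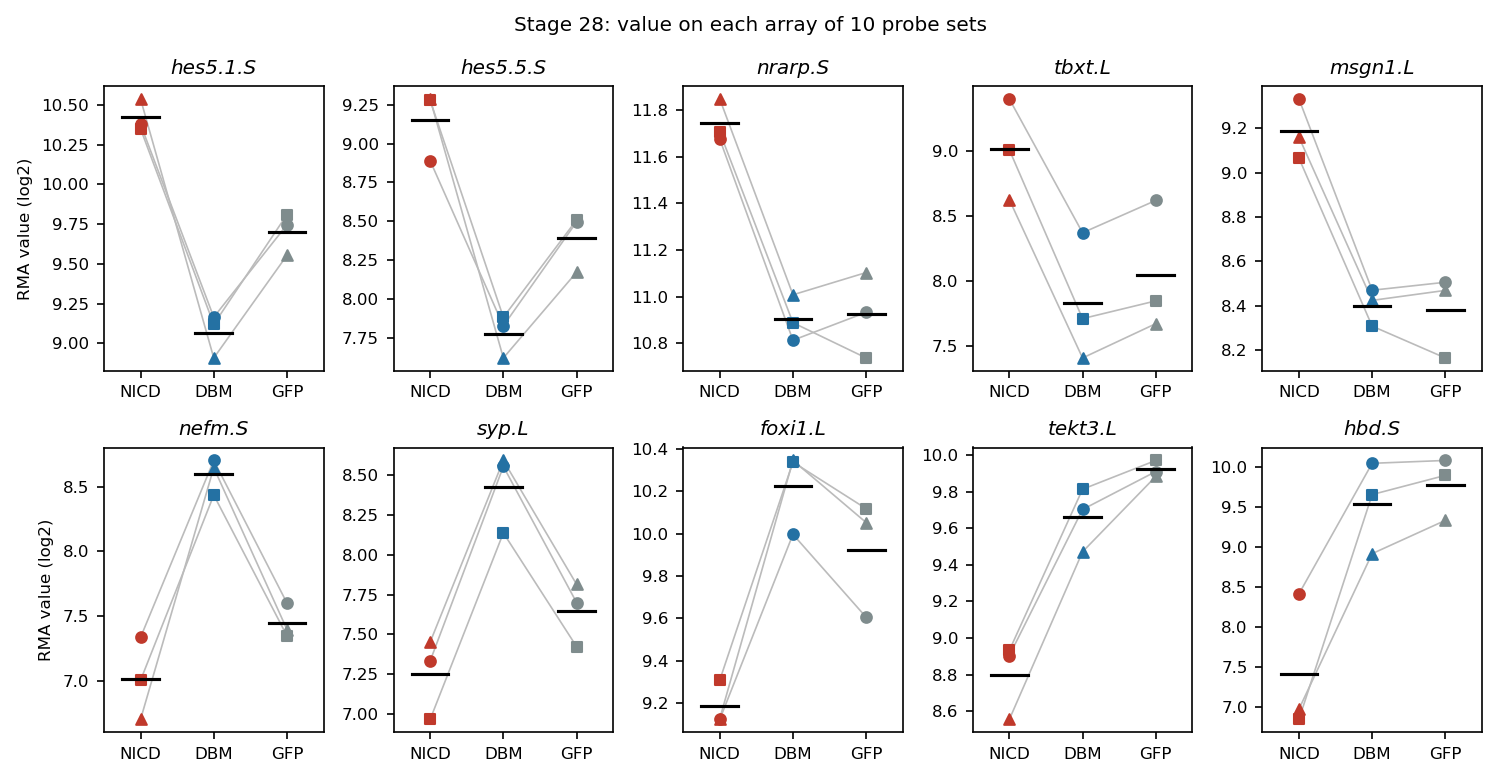
RMA value (log2) of 10 probe sets on each of the 9 arrays of stage 28, with NICD, DBM and GFP arrays side by side. Circles, squares and triangles are replicates 1, 2 and 3, grey lines join arrays of the same replicate number and black bars are means. The means of hes5.1.S and hes5.5.S step down in the order NICD, GFP, DBM, those of nefm.S and syp.L step up in it, and nrarp.S, msgn1.L, tekt3.L and hbd.S differ mainly between NICD and the other 2 constructs.

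The receptors, ligands and processing enzymes of the pathway mostly did not pass. Among 38 probe sets of this machinery, 2 were higher, 4 were lower and 32 did not pass, with a median of 0.016. The higher and the lower share, each of few calls, were both above those over all probe sets with a symbol (2.78% and 4.99%). The ligand gene jag1.L was higher by 0.33 and the ubiquitin ligase gene dtx4.L by 0.31, and these calls were lost in 8 and 7 of the 9 fits that left out 1 array. The 4 lower calls were 2 copies of dner, a neuronal transmembrane protein proposed as a Notch ligand (-0.95 for dner.S and -0.43 for dner.L), neurl1.L, a ubiquitin ligase that acts on Delta (-0.87), and dtx3.L (-0.44). Their count was 2 without any 1 of the NICD arrays, DBM replicate 2 or DBM replicate 3, and 2 without the block. The ligands dll1.L (0.01) and dlc.L (-0.18) and the glycosyltransferase lfng.S (0.41, limma-adjusted p = 0.138) gave no call.

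Genes of differentiated neurons were lower in NICD embryos. Of 117 probe sets for neuronal cytoskeleton, vesicle and transmitter genes, 62 were lower and 1 higher (53% and 0.855%), with a median of -0.407, and 48 were lower without the block. The list mean was -0.305 to -0.184 on NICD arrays, 0.205 to 0.316 on DBM arrays and -0.066 to -0.002 on GFP arrays, so that the 3 constructs did not overlap. nefm.S, a neurofilament subunit of axons, read 7.33, 7.0 and 6.70 on NICD arrays and 8.71, 8.44 and 8.65 on DBM arrays, with GFP at 7.60, 7.35 and 7.40. The DBM arrays lay apart above both others. The difference was -1.59 ± 0.11, 3.0-fold (limma-adjusted p = 0.000133).

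Several of the lowest p-values belonged to neuronal genes outside the list. syp.L, a synaptic vesicle protein, was 7.33, 6.97 and 7.45 on NICD arrays, against 8.55, 8.14 and 8.59 on DBM arrays and 7.70, 7.42 and 7.81 on GFP arrays. No NICD array reached a DBM array, and the difference was -1.18 ± 0.07 (limma-adjusted p = 0.000122). Neuropeptide precursors of the list were lower too, with tac1.L (tachykinin) at -1.50 ± 0.10 and penk.L (enkephalin) at -1.22 ± 0.08. Within the list, stmn3.S, a microtubule regulator, differed by -1.19, the synuclein gene sncg.S by -1.32 and rtn1.S, a reticulon of the endoplasmic reticulum, by -1.14. Outside it were nif.L, a neuronal intermediate filament (-1.23), hpca.S, a calcium sensor (-1.05), olfm1.S (-1.20) and rab6b.S (-1.13). For syp.L, sncg.S and stmn3.S the difference was made more by DBM lying above GFP (0.78, 0.74 and 0.79) than by NICD lying below it (-0.40, -0.59 and -0.40). The 1 higher call was nppc.S, a natriuretic peptide precursor (0.49), lost without NICD replicate 3, DBM replicate 1 or DBM replicate 3.

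The transcription factors that start neuron formation gave few calls. Of 55 probe sets of proneural and neuronal factors, 1 was higher and 4 lower (1.82% and 7.27%), with a median of -0.001. Over all probe sets with a symbol the shares were 2.78% and 4.99%. pou4f4.S was lower by -0.99 ± 0.11 and atoh7.S, a retinal ganglion cell factor, by -1.04 ± 0.14, although a NICD and a DBM array overlapped for atoh7.S. neurod1.S (-0.48) and insm1.L (-0.39) passed as well, and the higher one was prdm12.L (0.43), whose call was lost when NICD replicate 1, NICD replicate 2 or any DBM array was left out, and without the block (limma-adjusted p = 0.111). The 4 became 2 without NICD replicate 2, NICD replicate 3, DBM replicate 1, DBM replicate 3 or GFP replicate 3, and 1 without the block. Without it pou4f4.S passed and atoh7.S did not (limma-adjusted p = 0.00488 and 0.193). neurog2.L (0.19), neurog2.S (0.11), neurod1.L (-0.24) and neurod4.L (-0.20) gave no call.

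Genes of the neural progenitor state went the other way. Of 60 probe sets, 16 were higher and 0 lower (26.7% and 0%), with a median of 0.204. The list includes nrarp, which the target list holds too. slc1a3.L, a glutamate transporter of radial glia, read 8.58, 8.69 and 9.67 on NICD arrays, against 7.21, 7.08 and 7.75 on DBM arrays. GFP arrays read 7.77, 8.81 and 9.65 and overlapped the NICD arrays. Its difference of 1.64 ± 0.21 was the largest among higher probe sets with a symbol that passed, and it lay mainly in DBM being below GFP (-1.39). The call of slc1a3.L was lost without the block (limma-adjusted p = 0.123). gmnn.L, the geminin gene that limits DNA replication licensing, was higher by 0.84 ± 0.09, and ptn.L, a growth factor, by 0.66 ± 0.10. The 16 became 10 without NICD replicate 2, 9 without NICD replicate 3 or DBM replicate 2, 7 without DBM replicate 3 and 7 without the block.

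Replication and mitosis genes gave 8 calls, all higher in NICD. Of 172 probe sets, 8 were higher and 0 lower (4.65% and 0%), with a median of 0.141. Over all probe sets with a symbol the shares were 2.78% and 4.99%, with a median of 0.023. Besides both gmnn copies, top2a.L (topoisomerase, 0.40) and ccnd1.S (cyclin, 0.32) passed. List means overlapped between constructs (-0.003 to 0.127 on NICD arrays, -0.165 to 0.023 on DBM arrays). The 8 became 3 without NICD replicate 1, 2 without NICD replicate 3, DBM replicate 1 or DBM replicate 2, and 1 without the block and on leaving out NICD replicate 2 or DBM replicate 3.

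Many genes of ionocytes, the proton-secreting cells of the larval skin, passed as lower. Of 57 probe sets, 33 were lower and 0 higher (57.9% and 0%), with a median of -0.476, and 16 were lower without the block. foxi1.L, the transcription factor that specifies these cells, read 9.12, 9.31 and 9.13 on NICD arrays and 10.00, 10.34 and 10.34 on DBM arrays, with GFP at 9.61, 10.12 and 10.05. NICD arrays were the lowest and GFP arrays overlapped DBM arrays, for a difference of -1.04 ± 0.09 (limma-adjusted p = 0.000351). Among subunits of the vacuolar proton pump, atp6v0d2.L differed by -1.10 ± 0.10. The carbonic anhydrase gene ca2.S differed by -1.02 ± 0.08 and the transcription factor gene ubp1.L by -0.90 ± 0.09. Pump subunits outside the 4 genes of lowest p, chosen after values were seen, include atp6v0a4.L (-1.28) and atp6v1b1.L (-1.22). The pump also acidifies vesicles in other cells, so its genes do not mark ionocytes alone.

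Multiciliated cells, which carry motile cilia on the skin, were marked by lower values as well. Of 110 probe sets for ciliogenesis regulators and axonemal parts, 33 were lower and 1 higher (30% and 0.909%), with a median of -0.168. tekt3.L, a tektin of the axoneme, read 8.90, 8.93 and 8.55 on NICD arrays and 9.70, 9.81 and 9.47 on DBM arrays, while GFP arrays at 9.91, 9.97 and 9.88 were higher than both. It differed by -0.87 ± 0.08 (limma-adjusted p = 0.00048). morn3.S differed by -0.92 ± 0.09, dnai1.L, a dynein intermediate chain, by -0.57 ± 0.07, and foxj1.S, the transcription factor for motile cilia, by -0.49 ± 0.07. foxj1.L did not pass (-0.11), and foxj1.2.L passed at -0.64 ± 0.08. The list's medians against GFP were -0.206 for NICD and -0.057 for DBM, so DBM embryos did not lie above GFP as they did for neuronal and ionocyte genes (0.233 and 0.231). The 33 became 18 without NICD replicate 2, 20 without NICD replicate 3, 17 without DBM replicate 2 and 16 without the block. The 1 higher call, daw1.S (0.34), was lost in 8 of the 9 fits that left out 1 array.

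No other skin list had a lower call. None of 10 probe sets for secretory cells passed, with a median of -0.012 and a lowest limma-adjusted p of 0.18. Among 88 probe sets for keratins and epithelial junctions, 17 were higher and 0 lower (19.3% and 0%, beside 2.78% and 4.99% over all), with a median of 0.057. They include 5 probe sets for the keratin gene krt19.S (up to 0.53), the claudin gene cldn6.1.S (0.51), the desmocollin gene dsc3.S (0.57) and has2.S, a hyaluronan synthase (0.54). For dsc3.S, NICD lay near GFP (0.06) and DBM below it (-0.51). The 17 became 8 without NICD replicate 2, 7 without NICD replicate 3, 11 without DBM replicate 1, 10 without DBM replicate 2, 6 without DBM replicate 3 and 4 without the block.

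Presomitic mesoderm and tailbud genes were higher in NICD embryos, after the Notch targets the list with the largest share of higher calls. Of 114 probe sets, 51 were higher and 0 lower (44.7% and 0%), with a median of 0.27. The list mean was 0.202 to 0.223 on NICD arrays, -0.149 to -0.092 on DBM arrays and -0.141 to -0.029 on GFP arrays. DBM and GFP arrays overlapped and NICD arrays lay above both. tbxt.L, the Brachyury gene of the tailbud and notochord, read 9.40, 9.01 and 8.63 on NICD arrays, against 8.37, 7.71 and 7.41 on DBM arrays and 8.62, 7.85 and 7.67 on GFP arrays. Replicate 1 was the highest for every construct, and the difference of 1.18 ± 0.08 was like within the pairs (limma-adjusted p = 0.000157). Without the block tbxt.L did not pass (limma-adjusted p = 0.108). Its other copy tbxt.S differed by 0.85 ± 0.08.

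msgn1.L, a master factor of presomitic mesoderm, read 9.33, 9.06 and 9.16 on NICD arrays, against 8.47, 8.31 and 8.42 on DBM arrays and 8.51, 8.17 and 8.47 on GFP arrays. DBM and GFP arrays could not be separated, and the difference was 0.78 ± 0.07. mespb.L, which acts where somite borders form, differed by 0.89 ± 0.11, and sp5l.S, a Wnt-responsive factor, by 0.80 ± 0.07. Signals of the tailbud passed too, among them wnt8a.L (1.0 ± 0.10), wnt5b.S (0.62 ± 0.07) and fgf8.L (0.65 ± 0.09). snai2.L, in both this list and that of the neural crest, differed by 0.77 ± 0.07. The 51 became 31 without NICD replicate 2, 33 without DBM replicate 2, 29 without DBM replicate 3 and 28 without the block.

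Hox genes and the Wnt and BMP pathways followed in the same direction. Of 38 Hox probe sets, 9 were higher and 0 lower (23.7% and 0%), led by hoxc10.L (0.54), hoxd9 (0.49), hoxa7.L (0.55) and hoxd11.L (0.51). They were 4 without DBM replicate 3 and 5 without the block. The Hox list had medians against GFP of 0.369 for NICD and 0.158 for DBM, so both constructs lay above GFP there. Of 96 Wnt probe sets, 19 were higher and 1 lower (19.8% and 1.04%, beside 2.78% and 4.99% over all probe sets with a symbol). The higher ones include the ligand wnt8a.L, named above, and the secreted Wnt antagonists dkk1.S (0.66 ± 0.08) and wif1.S (0.56). Ligands and antagonists are thus both among them. The lower one was sfrp1.L, another antagonist (-0.35), whose call was lost when any NICD array, DBM replicate 1 or DBM replicate 3 was left out, and without the block (limma-adjusted p = 0.187). The 19 became 10 without NICD replicate 2, 11 without DBM replicate 2, 10 without DBM replicate 3 and 10 without the block. Of 52 BMP probe sets, 9 were higher and 0 lower (17.3% and 0%), among them the antagonists nog.L (0.45) and fst.L (0.35), the ligand bmp2.S (0.45), and the targets ventx1.1.L (0.37) and id3.S (0.35). They were 5 without NICD replicate 1, 4 without DBM replicate 1, 2 without DBM replicate 2, and 1 without NICD replicate 2, NICD replicate 3, DBM replicate 3 or the block.

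Outside the lists, ptgs2.S, a prostaglandin synthase, and twsg1.S, a BMP-binding protein, were higher. ptgs2.S read 11.05, 11.15 and 11.04 on NICD arrays, against 9.93, 10.15 and 9.73 on DBM arrays and 10.35, 10.58 and 10.34 on GFP arrays, a difference of 1.14 ± 0.08. The 3 constructs did not overlap. twsg1.S differed by 1.03 ± 0.08, the posterior homeobox gene post.L by 0.96 ± 0.08 and pnhd.L, a secreted mesoderm inducer of frogs, by 0.99 ± 0.09. The call of twsg1.S was lost without the block (limma-adjusted p = 0.0608). XB5776174.S, which has no described role in the tables used, differed by 1.34 ± 0.09. ankrd37.L differed by 1.54 ± 0.24 with a wide spread between NICD arrays (8.83, 9.03 and 7.87) beside DBM arrays at 6.86, 7.49 and 6.76.

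Several neural crest factors passed as higher in NICD embryos. Of 73 neural crest and pigment probe sets, 12 were higher, 2 were lower and 59 did not pass (16.4% higher and 2.74% lower, beside 2.78% and 4.99% over all). sox10.L, a factor of migrating crest, read 8.37, 8.44 and 8.14 on NICD arrays and 7.45, 7.55 and 7.34 on DBM arrays, with GFP at 7.53, 7.56 and 7.86. NICD arrays lay above the other 6, for a difference of 0.87 ± 0.12 (limma-adjusted p = 0.00245). foxd3.S (0.73 ± 0.09) and sox8.L (0.99 ± 0.12) belong to the same set of crest specifiers. The lower ones were kit.S, a receptor of pigment cell precursors (-0.45), and alx1.L, a factor of facial mesenchyme (-0.52), and neither call held without NICD replicate 2, NICD replicate 3 or DBM replicate 3. Without the block 9 were higher and 1 lower.

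Of 64 brain region probe sets, 6 were higher and 3 lower (9.38% and 4.69%, beside 2.78% and 4.99% over all probe sets with a symbol). The lower share is thus near that over all probe sets. Higher were fgf8.L, named above with the tailbud signals, nkx6-2.L (0.64) and nkx2-2.S (0.56), the last 2 ventral neural tube factors, and dmrta1.S (0.47). eomes.L (-0.44), dlx2.L (-0.58) and otx2.L (-0.32), all of forebrain or anterior brain, were lower. The 6 became 3 without NICD replicate 2, NICD replicate 3 or the block, and 2 without DBM replicate 3. The 3 lower calls became 0 without NICD replicate 2, NICD replicate 3, or any 1 of the DBM arrays, and without the block, and 5 without GFP replicate 1.

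Blood genes held the largest difference of the comparison, that of a globin. Of 82 blood and endothelial probe sets, 20 were lower and 1 higher (24.4% and 1.22%), with a median of -0.1. hbd.S, a globin, read 8.41, 6.84 and 6.97 on NICD arrays, against 10.04, 9.65 and 8.91 on DBM arrays and 10.08, 9.89 and 9.33 on GFP arrays. DBM and GFP overlapped, and NICD lay below both by -2.13 ± 0.22 against DBM, 4.37-fold (limma-adjusted p = 0.0006). hbe1.L had the lowest p among probe sets with a symbol, with 6.05, 4.66 and 4.80 on NICD arrays and 7.43, 6.21 and 6.27 on DBM arrays, a difference of -1.46 ± 0.07 (limma-adjusted p = 8.42e-05). hba4.S (-1.45 ± 0.15) and hba2.L (-1.08 ± 0.12), both alpha globins, moved likewise, though globin probe sets can share sequence and are not independent. Replicate 1 was highest for hbe1.L and hba4.S in all 3 constructs. Without the block 2 of the list were lower, and hbe1.L, hba4.S and hba2.L did not pass (limma-adjusted p = 0.209, 0.112 and 0.0545). The higher call came from a probe set for nfe2.S (0.47), while another probe set for this symbol was lower (-0.68), so the gene's direction is not settled.

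Some genes of liver and plasma proteins passed as lower, with a wide spread. Of 77 endoderm, gut and liver probe sets, 15 were lower, 1 was higher and 61 did not pass, with a median of -0.084. The shares were 19.5% lower and 1.3% higher, beside 4.99% and 2.78% over all probe sets with a symbol. apoa1.S, an apolipoprotein, read 7.3, 5.3 and 6.96 on NICD arrays and 8.48, 7.68 and 8.74 on DBM arrays (-1.78 ± 0.40, limma-adjusted p = 0.0299). NICD replicate 2 was the lowest array, and the call was lost on leaving out that array, NICD replicate 3 or any 1 of the DBM arrays. serpina1.L, a protease inhibitor of plasma, differed by -1.35 ± 0.20 on its probe set of lowest p and by -1.72 ± 0.30 on another, and serpina1.S by -1.56 ± 0.37. apob.S (-0.78), fgg.L (-0.87) and fgb.L (-0.75), an apolipoprotein and 2 fibrinogen chains, passed. The higher call was nkx2-2.S, named above. The 15 became 4 without NICD replicate 2 or 3, 5 without DBM replicate 1, 3 without DBM replicate 3 and 0 without the block.

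Some lens and photoreceptor genes passed as lower in NICD embryos. Of 100 eye and lens probe sets, 13 were lower, 0 higher and 87 did not pass (13% lower, beside 4.99% over all), with a median of -0.016. crybb1.L, a lens crystallin, read 5.54, 4.97 and 5.29 on NICD arrays and 6.90, 6.66 and 6.31 on DBM arrays, with GFP highest at 7.25, 7.28 and 7.05. The 3 constructs did not overlap, and both NICD and DBM lay below GFP (-1.92 and -0.57); the difference between them was -1.35 ± 0.13 (limma-adjusted p = 0.00048). cryba1.L (-0.97 ± 0.12) and cryba4.S (-0.74 ± 0.09) went with it, as did arr3.L, a cone arrestin (-0.69 ± 0.08), and both copies of the photoreceptor factor crx (-1.18 for crx.S and -1.10 for crx.L, chosen after their values were seen). The 13 became 8 without NICD replicate 2, 7 without NICD replicate 3, DBM replicate 2 or DBM replicate 3, and 7 without the block. The list's median was -0.073 at stage 18 and -0.268 at stage 38. Of its 100 probe sets, 17 passed for the difference between stages 28 and 38, beside 1% over all. Of these, 0 were called at stage 28.

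Muscle, heart and kidney lists differed in their shares. Of 125 skeletal muscle probe sets, 11 were lower and 1 higher (8.8% and 0.8%), with a median of -0.112. Over all probe sets with a symbol the shares were 4.99% and 2.78%. hspb1.L, a small heat shock protein also in the stress list, was the clearest (-1.05 ± 0.11), beside smpx.L (-0.72) and the glycolytic enzymes eno3.L (-0.63) and pgam2.S (-0.42); the higher one was myl2.S (0.73). The 11 became 5 without NICD replicate 2, 4 without NICD replicate 3, 7 without DBM replicate 2, 3 without DBM replicate 3, 18 without GFP replicate 1 and 2 without the block. Of 52 heart probe sets, 10 were lower and 1 higher (19.2% and 1.92%). The lower ones were led by tbx5.L (-0.60 ± 0.09), with bves.L (-0.49), gata5.S (-0.43) and myh6.S (-0.51) behind it, and the higher one was fgf10.S (0.42). Those 10 became 1 without NICD replicate 2 or DBM replicate 3, 2 without NICD replicate 3 or DBM replicate 2, 4 without DBM replicate 1 and 0 without the block, and tbx5.L was the only one of these 5 to pass in all 9 fits that left out 1 array.

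For the pronephros, the larval kidney, 3 of 69 probe sets were lower and 1 was higher, which is near the shares over all probe sets. They were lhx1.L, a factor of the kidney field (-0.54 ± 0.07), dab2.S (-0.46), aqp3.L (-0.40) and, higher, slc34a2.L, a phosphate transporter (0.54). The 3 became 1 without NICD replicate 2, DBM replicate 2, DBM replicate 3 or the block. Of 68 stress and cell death probe sets, 4 were higher and 3 lower (5.88% and 4.41%, beside 2.78% and 4.99% over all probe sets with a symbol). gadd45a.S (0.61) and phlda2.L (0.67) were higher, and sesn1.L (-0.56) and casp10.L (-0.35) lower beside hspb1.L. The 4 became 2 without NICD replicate 2, NICD replicate 3, DBM replicate 3 or the block, and the 3 became 1 without NICD replicate 2 or 3, DBM replicate 1 or 2, or the block.

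**Figure D3:**
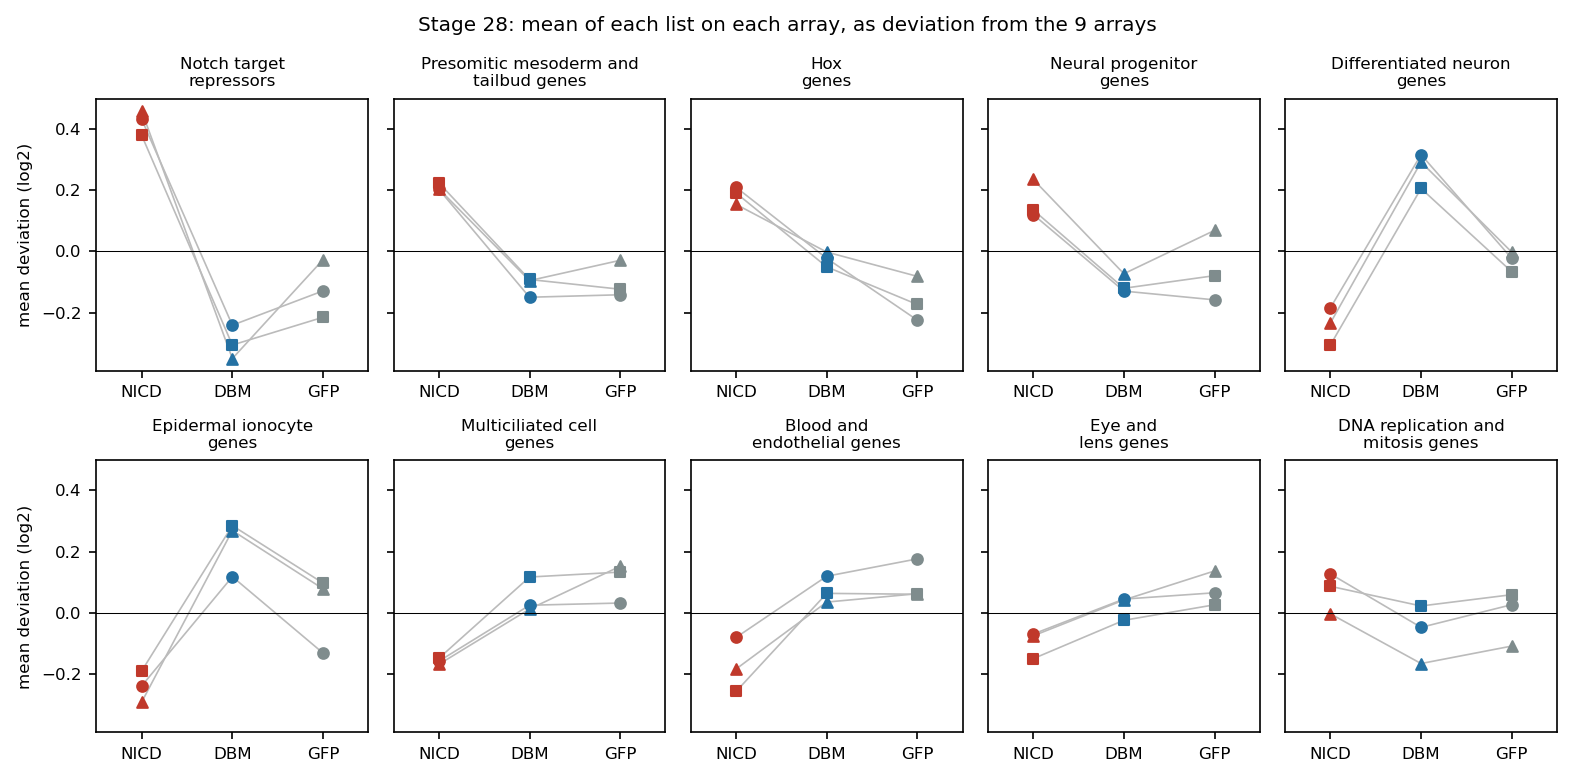
Mean over the probe sets of 10 gene lists on each array of stage 28, as deviation in log2 from the mean of the 9 arrays, with NICD, DBM and GFP side by side. Circles, squares and triangles are replicates 1, 2 and 3, and grey lines join the same replicate number. NICD arrays do not overlap DBM arrays in any of these lists but DNA replication and mitosis, and GFP arrays lie between the 2 constructs for neuronal genes but with DBM for blood and multiciliated cell genes.

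The GFP arrays show which construct moved away from the control, and the comparisons with GFP share arrays with NICD minus DBM. Over the 431 probe sets higher in NICD, the median was 0.311 for NICD minus GFP and -0.148 for DBM minus GFP, and NICD was the farther from GFP in 307. Over the 773 lower ones the medians were -0.369 and 0.165, and NICD was the farther in 523. Lists differed in this. For Notch target repressors the list medians were 0.684 (NICD) and -0.142 (DBM), and for presomitic and tailbud genes 0.245 and -0.015. For neuronal genes they were -0.192 and 0.233, and for ionocyte genes -0.231 and 0.231, so that both constructs lay away from GFP on opposite sides. No test of the difference between lists was made.

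**Figure D4:**
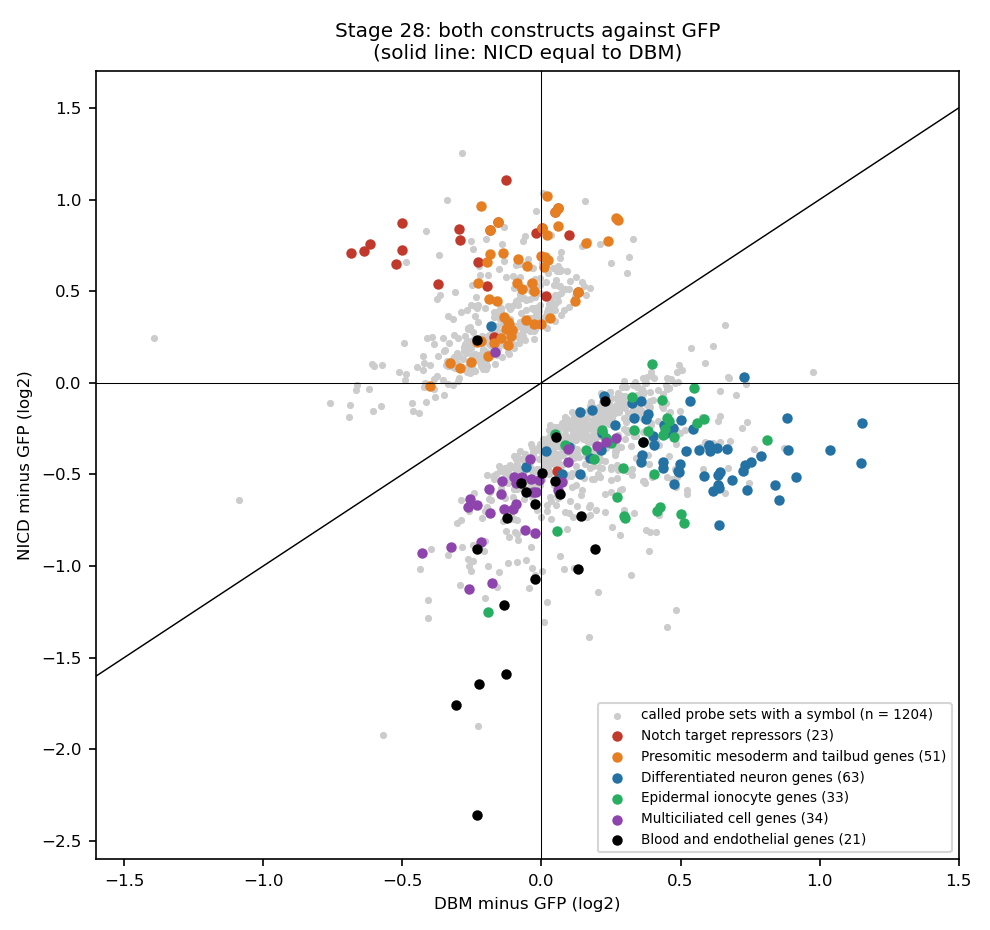
NICD minus GFP (vertical, log2) against DBM minus GFP (horizontal, log2) for the 1204 called probe sets with a symbol at stage 28, with called members of 6 gene lists in colour and their number in brackets. The solid line marks equal values in NICD and DBM, and called probe sets lie off it by construction. Neuronal genes spread to the lower right, blood genes lie below the centre and presomitic genes above it.

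At the other stages the difference between the constructs was not the same. The change of NICD minus DBM between stage 28 and stage 18 passed in 382 probe sets with a symbol (2.46%), and 251 of them were among the 1204 called at stage 28; that between stage 28 and stage 38 passed in 155 (1%), of which 76 were. The estimate was larger in size at stage 28 in 228 of the 251 and in 73 of the 76, which the choice of probe sets called at stage 28 favours. Of the 1204, 891 had the same sign at stage 18 and 1048 at stage 38.

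Notch targets differed in their course over the stages. hes5.1.S differed by 2.72 at stage 18, 1.36 at stage 28 and 0.72 at stage 38, and the change between stages 18 and 28 passed (limma-adjusted p = 0.0003). hes5.2.L (2.49, 1.17 and 0.61) and hey1.S (2.17, 0.72 and 0.25) had the same order. hes5.5.S was level at 1.49 and 1.38 and then 0.44, with the difference between stages 28 and 38 passing (limma-adjusted p = 0.0364). esr-5.L instead differed by 0.12 at stage 18, 1.02 at stage 28 and 1.09 at stage 38, and its change from stage 18 passed (limma-adjusted p = 0.00791).

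For neuronal genes the list median was most negative at stage 28. nefm.S differed by 0.44, -1.59 and -0.83 at the 3 stages, and syp.L by 0.13, -1.18 and -0.55. The change between stages 18 and 28 passed for both (limma-adjusted p = 3.32e-05 and 8.92e-06). That between stages 28 and 38 passed for syp.L and not for nefm.S. The list's median was -0.057 at stage 18, -0.407 at stage 28 and -0.207 at stage 38. Of its called probe sets, 31 passed for the difference between stages 18 and 28, beside 251 of all 1204 called. For that between stages 28 and 38, 6 passed, beside 76 of the 1204. The ionocyte factor foxi1.L differed by -0.73, -1.04 and -0.53, and neither stage comparison passed. The globin gene hbd.S had -0.17, -2.13 and -0.51, and both of its stage comparisons passed (limma-adjusted p = 0.0003 against stage 18 and 0.00675 against stage 38).

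The neural crest factors snai2.L, sox10.L and foxd3.S had opposite signs at stages 18 and 28, whereas sox8.L did not (0.13, 0.99 and 0.14 at stages 18, 28 and 38). snai2.L differed by -0.70 at stage 18, 0.77 at stage 28 and 0.59 at stage 38, with a limma-adjusted p of 2.7e-06 for the change between stages 18 and 28. sox10.L (-0.38, 0.87 and 0.84) and foxd3.S (-0.51, 0.73 and 0.45) showed the same turn. Among presomitic genes, tbxt.L differed by 1.05, 1.18 and 0.38 at stages 18, 28 and 38, with a limma-adjusted p of 0.025 between stages 28 and 38. msgn1.L differed by -0.0039, 0.78 and 1.13, with a limma-adjusted p of 0.0472 between stages 18 and 28. ankrd37.L differed by -1.74 at stage 18, 1.54 at stage 28 and 0.78 at stage 38. The count of 382 became 228 when NICD replicate 2 of stage 28 was left out, 223 for NICD replicate 3 and 205 for DBM replicate 3, and it was 55 without the block. The count of 155 became 79, 60 and 71 when the same arrays were left out, 101 for DBM replicate 2 of stage 28, and, at stage 38, 73 for NICD replicate 2, 90 for DBM replicate 1 and 83 for DBM replicate 2. It was 2 without the block.

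**Figure D5:**
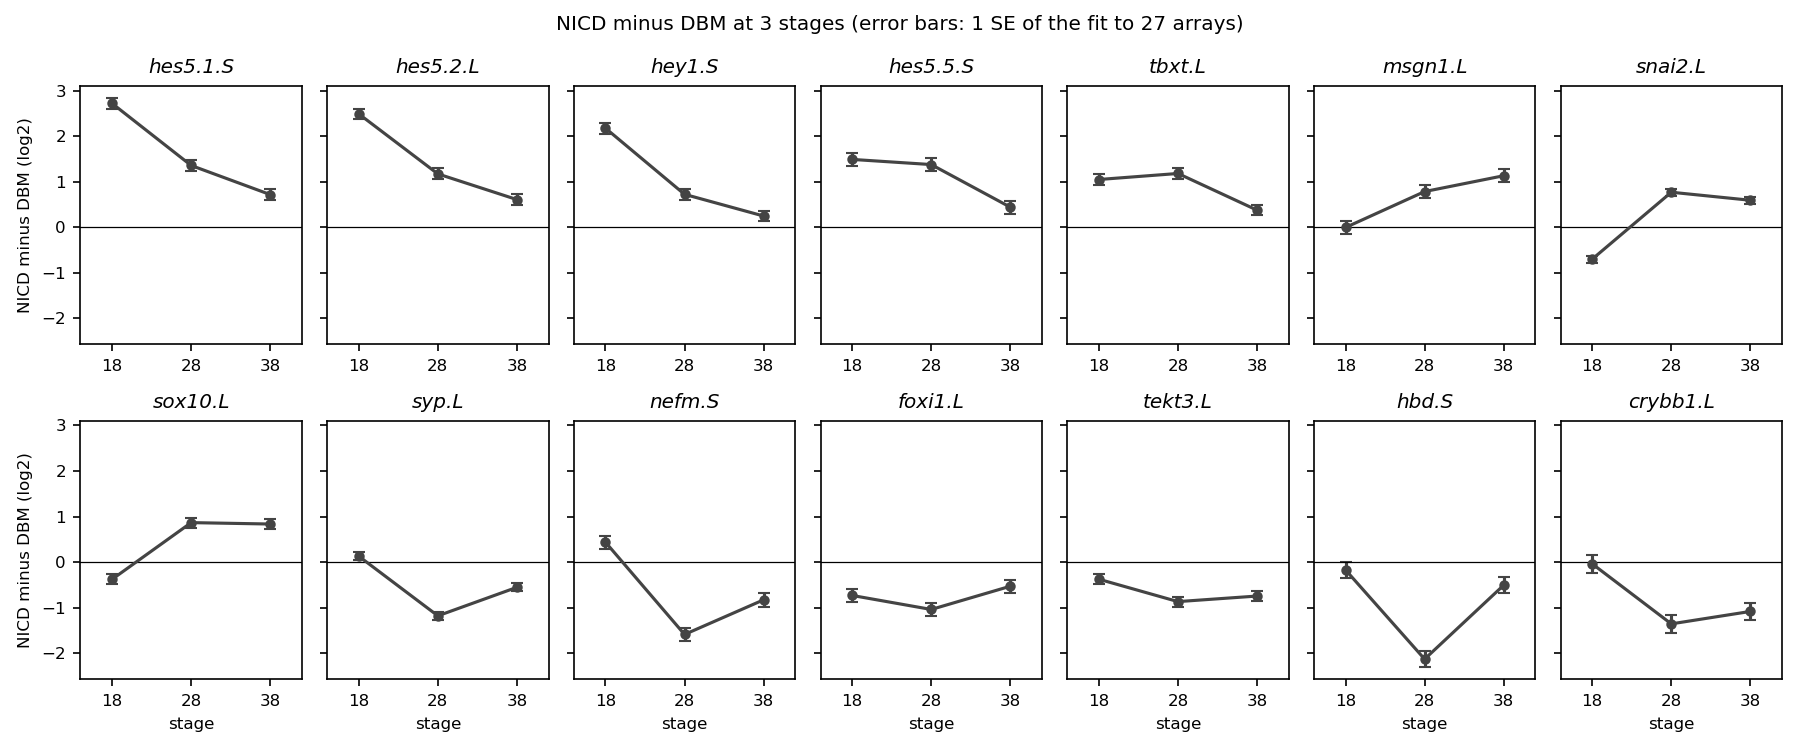
NICD minus DBM (log2) at stages 18, 28 and 38 for 14 probe sets, with error bars of 1 SE from the fit to all 27 arrays. hes5.1.S, hes5.2.L and hey1.S fall with stage, snai2.L and sox10.L turn from negative to positive after stage 18, and nefm.S, hbd.S and crybb1.L are most negative at stage 28. Of the last group, only hbd.S passed for the difference between stages 28 and 38. The eye and lens list, which holds crybb1.L, had its most negative median at stage 38 (-0.268, beside -0.016 at stage 28).

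The called genes also differed from all probe sets in their course over development in the GFP arrays. These arrays do not enter the estimate of NICD minus DBM. Those of stage 28 do enter the fit and its estimate of spread, and so affect which probe sets were called. Of the 431 probe sets higher in NICD, 113 had a higher GFP mean at stage 38 than at stage 28 (26.2%, median change -0.379). Of the 773 lower ones, 502 did (64.9%, median change 0.523), beside 49.1% and -0.008 over all probe sets with a symbol. Between stages 18 and 28, 30.9% of the higher and 84% of the lower ones had increased, beside 44.3% overall. Presomitic and tailbud genes decreased in GFP embryos after stage 28 (median -0.743) and neuronal genes increased (0.866). Multiciliated cell genes were lower in NICD although they decreased in GFP embryos (-0.534). Skeletal muscle genes had increased between stages 18 and 28 (0.81), and 8.8% of their probe sets were called lower, beside 4.99% over all. The part of developmental pace in these differences was not tested. Called and other probe sets had like brightness at stage 28, with median levels of 7.90 for the higher, 7.77 for the lower and 7.83 for all.

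The frog is an allotetraploid, and most genes have a copy on each subgenome, marked .L and .S. Both copies had probe sets for 2009 genes, of which 289 were called through at least 1 copy. Both copies were called higher in 28 genes and lower in 71, only 1 copy was called in 189, and in 0 genes were the copies called in opposite directions. In the remaining 1, sall2, both copies were called and sall2.L had probe sets called in each direction. Copies share sequence, so a probe set can read both, and these are not independent measurements. Within single symbols, 3 had probe sets called in both directions (nfe2.S, sall2.L and nek8.S).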

How the data were processed

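Single-colour Affymetrix arrays measured RNA of 27 pools of frog embryos. The authors deposited RMA values on the log2 scale, normalized and summarized with RMA (robust multi-array average) in Bioconductor, version not given in the sources used here, and these were used unchanged. Groups and replicate numbers came from the sample titles. A second deposited table was not used: its 27 columns of array values are not used here, and its p-value columns hold the authors' own comparisons. Symbols came from the platform annotation, updated by Entrez identifier with the RefSeq gene table of assembly 10.1 (15394 of the probe sets with an identifier found, 2 symbols changed); 279 probe sets with several genes and 16851 with none were left out of the counts.

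In R 4.3.3, limma 3.58.1 (lmFit, contrasts.fit and eBayes) was fitted to all 32635 probe sets of the 9 arrays of stage 28 with replicate number as a block, with Benjamini-Hochberg adjustment over all of them and a threshold of 0.05. Stage differences were tested as interactions over the 27 arrays with the number as a block within each stage. The numbers were checked as pairs. Deviations from group means correlated at 0.492 to 0.724 between arrays of the same number in different groups (9 pairs). Between different numbers they correlated at -0.433 to -0.191 (18 pairs). Because each group was centred on its own mean, positive correlations within numbers force negative ones on average between them. The second range is therefore not a separate check. The fits were tested on simulated data. With 3 arrays per group, their number limits the precision. The p-values and the SE of differences rest on the spread between pools that is left once the part shared by each replicate number is removed, moderated over all probe sets.

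The 23 gene lists and the members were chosen with earlier results of these data known. Named genes were the 12 of lowest p and the 6 of largest difference per direction, up to 4 per list and direction, and a fixed set of Notch genes. A symbol is given by its probe set of lowest p, and genes named outside this rule were chosen after their values were seen. Other settings tried were no block, other arrays, repeated quantile normalization, a common median, a filter under log2 5, trend and robust fitting, array weights, Benjamini-Yekutieli, adjustment over symbols alone, and leaving out arrays.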

Additional observations from a re-analysis of the deposited data

Results flagged for a closer look

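For 65 of the named comparisons, the difference NICD minus DBM itself differed between stages in limma's interaction test at a Benjamini-Hochberg adjusted p below 0.05, 47 between stages 28 and 18 and 18 between stages 28 and 38. They come from the 130 named probe sets that passed at stage 28, and this choice favours a difference from the other stages. Over all probe sets with a symbol, 2.46% passed between stages 28 and 18 and 1% between stages 28 and 38. The values are stage 28 less the other stage, on the log2 scale.

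Against stage 18, the Notch target repressors had values of hes5.1.S (-1.36), hes5.1.L (-0.92), hes2.L (-0.75), nrarp.S (-0.49), hes5.2.L (-1.32), esr-5.L (0.89), hey1.S (-1.45), hes5.2.S (-1.05) and hes7.1.L (0.72), so that the difference between the constructs was smaller at stage 28 for the hes5, hey1 and nrarp probe sets and larger for esr-5.L. Neuronal genes had syp.L (-1.31), olfm1.S (-1.62), rab6b.S (-1.28), rtn1.S (-1.33), hpca.S (-1.03), penk.L (-0.95), stmn3.S (-1.32), sncg.S (-1.18), nif.L (-1.74), nefm.S (-2.02), dner.S (-0.66), prdm12.L (0.48) and atoh7.S (-0.96). Globin and plasma protein genes had hbe1.L (-1.43), hbd.S (-1.96), apoa1.S (-2.06), serpina1.L (-1.76), hba4.S (-0.78), serpina1.L (-1.41), apob.S (-0.84) and fgb.L (-0.78), where serpina1.L has a pair of probe sets. Muscle, heart and lens genes had eno3.L (-0.97), pgam2.S (-0.94), bves.L (-0.72) and crybb1.L (-1.32). Neural crest, presomitic, signaling and other genes had twsg1.S (1.16), ankrd37.L (3.28), XB5745823.L (-1.58), has2.S (0.64), snai2.L (1.47), foxd3.S (1.24), sox8.L (0.86), sox10.L (1.24), nog.L (0.58), dkk1.S (0.86), gadd45a.S (0.52), msgn1.L (0.79) and msgn1.S (0.65).

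Against stage 38, the values were XB5776174.S (1.1), tbxt.L (0.80), twsg1.S (0.64), hes5.5.S (0.93), hbe1.L (-0.88), syp.L (-0.63), olfm1.S (-0.87), hes5.5.S (0.98), hbd.S (-1.62), XB5745823.L (-1.17), nrarp.S (0.56), gmnn.L (0.70), foxj1.2.L (-0.79), tbxt.S (0.71), hba4.S (-0.99), sox8.L (0.85), kit.S (-0.74) and lhx1.L (-0.62), where hes5.5.S has a pair of probe sets. Negative values here belong to genes lower in NICD at stage 28 and positive ones to genes higher in NICD. The choice of probe sets called at stage 28 favours this too. No explanation of these differences was tested.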

How the results depend on the processing

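All 1204 called probe sets with a symbol kept their sign in every setting that gave them a value (1143 of them after the filter on dim probe sets). Several settings leave the estimate of NICD minus DBM as it was, so they could not change a sign. These are the fits without the block, on the 6 or 27 arrays, without a GFP array, with trend and robust fitting, the dim filter or another adjustment. Leaving out a replicate number could not either, since all 3 pairs of each called probe set went the same way. Without the block there were 123 higher and 232 lower, all 355 among the 1204, and without it 93 and 160 on only the 6 NICD and DBM arrays, and 105 and 191 on all 27 arrays. Array weights gave 864 and 1196, and Benjamini-Yekutieli adjustment 89 and 232. Centring the arrays on a common median gave 531 and 649, so that 45% of calls were higher, against 35.8%. Leaving out 1 array, or 1 replicate number, gave 93 to 631 higher and 251 to 906 lower. The change between stages 28 and 18 passed in 55 probe sets without the block, against 382 with it, and in 205 to 383 without 1 array (228, 223 and 205 without NICD replicate 2, NICD replicate 3 or DBM replicate 3 of stage 28, in that order). That between stages 28 and 38 passed in 2 without the block, against 155, and in 60 to 155 without 1 array. Leaving out an array of stage 28 gave 79 (NICD replicate 2), 60 (NICD replicate 3), 101 (DBM replicate 2) and 71 (DBM replicate 3), and one of stage 38 gave 73 (NICD replicate 2), 90 (DBM replicate 1) and 83 (DBM replicate 2). Of 130 named probe sets that passed, 89 passed in all 9 fits without 1 array and 72 without the block. The only reversed sign was that of dll1.L, which never passed: -0.0011 with repeated quantile normalization, and -0.0235 without NICD replicate 1 and -0.0179 without DBM replicate 1, within a range of -0.0298 (without replicate 1) to 0.0407 (without replicate 3). The causes were not tested. The number of arrays, 3 per group, limits the precision.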

Other observations

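Further groups of genes, put together after their values were seen and therefore given without a test of the group, differed between the constructs at stage 28. For all of these groups, the shares over all probe sets with a symbol were 2.78% higher and 4.99% lower, with a median of 0.023. Of 38 probe sets for myeloid cell genes, 21 were lower in NICD and 0 higher, with a median of -0.523. The granule enzyme gene mpo.S averaged 9.03 ± 0.41 in NICD and 10.13 ± 0.25 in DBM embryos (SD, 3 arrays each), with GFP at 9.94 ± 0.25. Others were mpo.L (-1.15), the protease gene prtn3.S (-1.31), the receptor gene csf3r.L (-0.89) and the oxidase subunit gene cybb.L (-0.60). mpo, lcp1 and cebpa also belong to the blood list. Of 53 matrix probe sets, 23 were higher and 6 lower, with a median of 0.316. The higher ones include has2.S, which the keratin and junction list holds too. The proteoglycan gene vcan.L was higher on 5 probe sets (0.50 to 0.86), while the collagen genes col6a2.L (-0.49), col1a1.S (-0.37) and col1a2.L (-0.36) were lower on 1 probe set each. Other probe sets for these collagens did not pass (-0.14 for col6a2.L, -0.31 for col1a1.S, -0.28 and -0.18 for col1a2.L).

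Of 47 hypoxia response probe sets, 11 were higher and 4 lower, with a median of 0.082. Over all probe sets with a symbol, 2.78% were higher and 4.99% lower. egln3.L, which encodes a hydroxylase of hypoxia-inducible factors, averaged 5.51 ± 0.16 in NICD, 4.74 ± 0.33 in DBM and 4.70 ± 0.22 in GFP embryos. Other egln3.L probe sets differed by 0.84, which passed, and -0.04, which did not. plod1.S differed by 0.80. epas1.S (-0.68), which encodes such a factor, and the glycolytic genes ldha.S (-0.42) and hk2.L (-0.35) were lower. Other hk2.L probe sets did not pass (-0.07, -0.03 and 0.02). Of 23 Nodal pathway probe sets, 4 were higher and 0 lower, with both copies of the Nodal antagonist lefty among them (0.98 for lefty.L and 0.84 for lefty.S). The 4 include pnhd.L, named above.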
